A study of Mus musculus with 3 samples.

Results

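The genes described are 10 transcription factors of the pluripotency network of mouse embryonic stem (ES) cells. They are the core factors *Pou5f1* (which encodes Oct3/4), *Sox2* and *Nanog*, the Krüppel-like factors *Klf2*, *Klf4* and *Klf5*, the T-box factor *Tbx3*, and *Sall4*, *Zfp42* (Rex1) and *Prdm14*. They were chosen by name, as the probes whose gene name is one of these 10 symbols, and make up 12 of the 55681 probes and 10 of the 35019 genes on the arrays. *Sall4* has 3 probes and each of the others has 1, printed on 1 spot each.

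The study asked what loss of *Nr0b1* (Dax1), an orphan nuclear receptor that represses transcription, does to ES cells. RNA of 3 groups was hybridised to 1-colour Agilent arrays, 3 arrays per group. All cells derive from the male EB5 line, itself from E14tg2a, are hemizygous for an *Nr0b1* allele made with loxP sites around exon 2, and carry piggyBac transgenes for the Cre recombinase MerCreMer and for Egfp, both driven by the CAG promoter. The fl-/Y −Tx cells (labelled flox/Y) kept exon 2. The fl-/Y +Tx cells (labelled with Cre for 4 days) had 4 days of 4-hydroxy tamoxifen (Tx), which activates MerCreMer in the cells of the culture. No group had Tx without a floxed allele, so at 4 days Tx, active Cre and the deletion cannot be told apart. The KO/Y cells had lost exon 2 and had been passaged several times, and such lines were picked as single colonies. How many clones the arrays cover is not given in the sources used here. Cultures held serum and LIF. Embryonic fibroblasts were used as feeder cells for some cultures but not others, and the labels do not say for which. The paper describes biological triplicates, and since no source ties an array to a culture, the p-values measure only the spread between these arrays.

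Oct3/4 and Sox2 bind DNA side by side and activate many genes of the undifferentiated state, their own included, and Nanog stabilises that state. LIF acts through Stat3 on *Klf4* and through other kinase pathways on *Tbx3*, while *Klf2* and *Klf5* complete a set of Klf factors that can stand in for each other in part. Sall4 cooperates with Oct3/4, Zfp42 is a classic marker of the naive state that is not itself needed for it, and Prdm14 holds down Fgf receptor signalling and the de novo DNA methyltransferases.

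All 12 probes were well above background on all 9 arrays, so each of the 10 genes gave a signal in every group. For *Nanog* this does not show that its own transcript was detected, because its probe holds repeated sequence, as described next. Sequences of the *Nanog* probe (in part), the *Pou5f1* probe and 2 promoters follow, because they bear on how the values can be read. Those of 2 *Sall4* probes are shown further on, with that gene. The *Nanog* probe lies on mm9 at chr6:122663676-122663735, at position 1235 of the transcript, according to the array's annotation. Of its 60 bases, bases 15 to 44 are printed:

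Nanog: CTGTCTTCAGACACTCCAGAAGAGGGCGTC

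With at least 30 aligned bases and at least 80% identity, the *Nanog* probe matched 112 of 32851 mouse promoters (0.341%, of 106 genes) and 30 other probes of the array. The printed stretch is the one covered by most of these matches, 103 of which span all of it. None of the other 11 probes matched a promoter in this search, which covered promoter windows and array probes but no genome. Of the 30 similar probes, 29 were tested. Their median log2 fold changes were -0.064, -0.010 and -0.040 in +Tx over −Tx, KO/Y over +Tx and KO/Y over −Tx. In these comparisons 1, 0 and 1 of the 29 passed the test, beside 23.6%, 24.7% and 45.3% of the 31191 probes tested.

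The *Pou5f1* probe lies on mm9 at chr17:35647280-35647340, at position 910 of the transcript. It is printed with the bases in capitals that are shared with a probe of *Pou5f1-rs4*, an Oct3/4-related sequence elsewhere in the genome:

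Pou5f1: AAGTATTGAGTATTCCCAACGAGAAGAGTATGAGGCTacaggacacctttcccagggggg

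Those 37 bases held 1 mismatch (97.3% identity), so transcripts of the related sequence may add to the *Pou5f1* signal. Besides the *Nanog* probe, whose closest match was 37 identical bases of a probe of *BC028528*, the probe of *Klf5* matched 2 other probes, the closest over 38 bases at 81.6% identity in the zinc finger gene *Zfp14*. The other 9 probes matched none.

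Promoters, as RefSeq gives them on GRCm38.p6 from 250 bases before to 50 bases after the start site, were matched for 6 of the 10 factors by symbol: *Pou5f1*, *Sox2*, *Nanog*, *Klf2*, *Klf4* and *Zfp42*. They were searched on both strands for an octamer (ATGCAAAT), a Sox motif (CATTGTT), both joined as an Oct-Sox element (CATTGTNATGCAAA), a nuclear receptor half-site (CAAGGNCA), a Klf motif (GGGTGNGG), a Stat motif (TTCCNGGAA) and a GC box (GGGCGGG). The first 250 bases of 2 of them follow, with every match to the octamer, the Oct-Sox element, the half-site and the Klf motif in capitals, since Oct3/4, Sox2 and the Klf factors bind such letters, and the half-site is of the kind that orphan receptors of the network bind. *Nanog* is chr6:122707239-122707488 on the plus strand and *Zfp42* is chr8:43307010-43307259 on the minus strand.

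Nanog: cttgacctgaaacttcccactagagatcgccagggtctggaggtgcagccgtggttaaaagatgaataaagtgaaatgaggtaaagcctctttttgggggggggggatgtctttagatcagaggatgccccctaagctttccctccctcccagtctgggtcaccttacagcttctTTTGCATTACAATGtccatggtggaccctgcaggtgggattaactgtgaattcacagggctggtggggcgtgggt

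Zfp42: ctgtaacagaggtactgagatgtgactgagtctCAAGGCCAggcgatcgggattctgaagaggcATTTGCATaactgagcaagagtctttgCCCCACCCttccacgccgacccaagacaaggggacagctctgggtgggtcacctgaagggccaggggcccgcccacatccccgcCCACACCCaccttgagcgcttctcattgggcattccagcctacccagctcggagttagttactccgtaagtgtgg

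The Oct-Sox element lay 75 to 62 bases before the first *Nanog* start site. It was found in 2 of the 32851 promoters (0.00609%), and both are *Nanog* promoters that share this 1 copy. The *Zfp42* promoter held an octamer, which 1.74% of all promoters hold, a half-site (6.71%) and 2 Klf motifs (16.6%), one of which overlaps a GC box. GC boxes, in 25.6% of all promoters, were also found in those of *Pou5f1*, *Sox2*, *Klf2* and *Klf4*, and a Sox motif (3.78%) in the second one of *Pou5f1*. A match describes the letters in this window and not a bound site.

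The arrays were comparable in quality, with 28820 to 32516 probes well above background and 0 saturated spots. *Nr0b1* itself fell 101-fold after 4 days with Tx and was at least 357-fold lower in KO/Y than in −Tx cells, with a probe at background on all 3 KO/Y arrays (adjusted p = 5.41e-09 and 1.28e-10, limma). Whether that probe lies in the deleted exon was not determined. The 3 −Tx arrays and +Tx array 1 lay on 1 slide, and +Tx arrays 2 and 3 and the 3 KO/Y arrays on another, so −Tx and KO/Y arrays never shared a slide. Levels below are log2 of the processed signal above the 75th percentile of the array, they can be compared between arrays for 1 probe but not between probes, and in RNA of whole cultures fewer cells of a type and less RNA per cell cannot be told apart.

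At 4 days with Tx, *Klf2* was lower and *Klf4* and *Tbx3* were higher than in −Tx cells, and the 3 core factors did not pass the test. From there to KO/Y cells, *Klf2* fell again and *Sox2* fell. In KO/Y over −Tx cells, 7 of the 10 factors passed, with *Klf2*, *Sox2*, *Klf5* and *Zfp42* lower and *Klf4*, *Tbx3* and *Prdm14* higher. The largest of these changes was 1.98-fold, so 0 of 10 factors passed 2-fold in any comparison, against 2.51%, 3.42% and 7.56% of all genes tested. *Klf2* in KO/Y over −Tx cells lay just inside that limit and passed it with the slide as a block (-1.11) and without KO/Y array 2, KO/Y array 3 or −Tx array 3 (-1.02 to -1.01). The fit with the slide as a block depends on +Tx array 1, the only +Tx array on slide 1. By an adjusted p under 0.05 the counts were 3 of 10 beside 26.6% of the 22443 genes tested in +Tx over −Tx, 2 of 10 beside 26.2% in KO/Y over +Tx and 7 of 10 beside 46.9% in KO/Y over −Tx. These shares of factors were not compared with the background by a test. The median log2 fold change of the 10 was -0.12, -0.14 and -0.20 in the 3 comparisons, and that of all genes was -0.064, 0.0083 and -0.063. Each pair of comparisons shares 1 group of arrays, so their values are not independent.

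**Figure D1:**
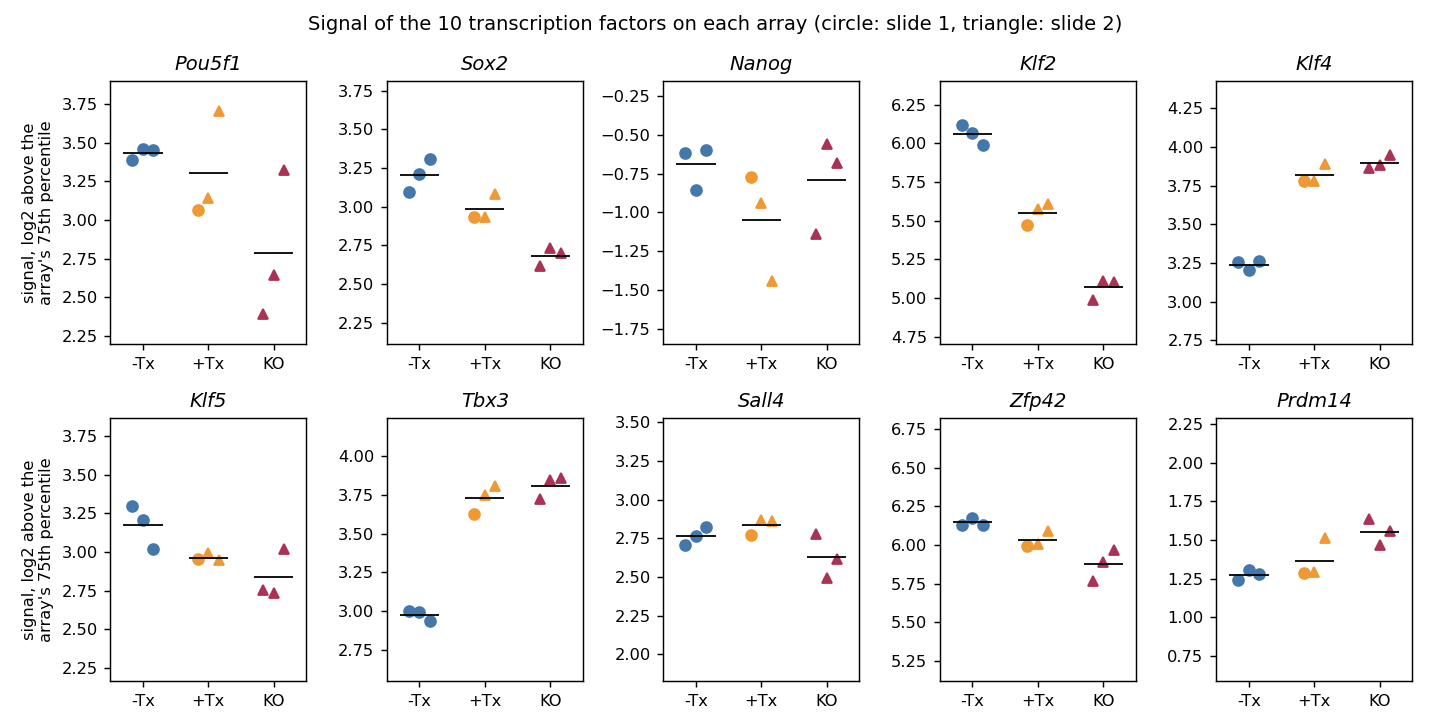
Signal of the 10 factors on each of the 9 arrays (vertical axes: log2 above the array's 75th percentile, every panel spanning the same range; horizontal axes: −Tx, +Tx and KO/Y). Points are arrays, shapes mark the slide and lines are group means. *Klf2* steps down between groups that do not overlap, *Klf4* and *Tbx3* rise between −Tx and +Tx, and the arrays of *Pou5f1* and *Nanog* scatter within groups.

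*Pou5f1*, whose product cannot be replaced by its relatives in ES cells, had levels of 3.39, 3.46 and 3.45 on the −Tx arrays. It was 3.06, 3.14 and 3.71 on the +Tx arrays and 2.39, 2.64 and 3.32 on the KO/Y arrays. Array 3 stood above the others both in +Tx and in KO/Y, +Tx arrays lay on both sides of the −Tx arrays, and all KO/Y arrays lay below the −Tx arrays. The log2 fold change was -0.13 in +Tx over −Tx (95% confidence interval -0.68 to 0.42). It was -0.52 in KO/Y over +Tx (-1.07 to 0.04) and -0.65 in KO/Y over −Tx (-1.20 to -0.09, adjusted p = 0.0562, limma). None passed the test, though the interval of the last lies below 0 before adjustment. Without KO/Y array 3 the change in KO/Y over −Tx cells was -0.91 (adjusted p = 0.00615, limma) and that over +Tx cells was -0.79 (adjusted p = 0.0246).

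The probe of *Pou5f1-rs4*, which shares 37 bases with that of *Pou5f1*, had levels of 2.37, 2.35 and 2.24 in −Tx, of 2.03, 2.16 and 2.65 in +Tx and of 1.36, 1.64 and 2.27 in KO/Y cells. Array 3 again stood above the others in +Tx and in KO/Y. Its log2 fold changes were -0.04, -0.52 and -0.56 in the same 3 comparisons, and none passed (adjusted p = 0.0815 for the last, limma over all probes). Whether these 2 probes measured separate transcripts was not tested.

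*Sox2*, the partner of Oct3/4, was highest in −Tx and lowest in KO/Y cells. Its levels were 3.1, 3.21 and 3.31 in −Tx, 2.93, 2.94 and 3.08 in +Tx, and 2.61, 2.73 and 2.70 in KO/Y cells. The groups did not overlap in any of the 3 comparisons. The log2 fold change in +Tx over −Tx cells was -0.22 (-0.40 to -0.05) and did not pass (adjusted p = 0.0642, limma). It was -0.30 in KO/Y over +Tx cells (standard error 0.077, adjusted p = 0.0207, limma) and -0.52 in KO/Y over −Tx cells (standard error 0.077, adjusted p = 0.000623), which is 1.44-fold lower. The call in KO/Y over +Tx cells was lost when only the 5 arrays of slide 2 were used (-0.33, adjusted p = 0.0845, limma) and when KO/Y array 1, KO/Y array 3 or +Tx array 3 was left out (adjusted p = 0.0509 to 0.0532).

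*Nanog* was -0.62, -0.85 and -0.60 in −Tx, -0.77, -0.94 and -1.45 in +Tx, and -1.14, -0.56 and -0.68 in KO/Y cells. The 3 groups overlapped in every comparison. The log2 fold changes were -0.36 (-0.82 to 0.10), 0.26 (-0.20 to 0.72) and -0.10 (-0.56 to 0.36) in the 3 comparisons, and none passed the limma test (adjusted p = 0.22, 0.394 and 0.716). These values come from the probe with repeated sequence printed above, and transcripts of other genes that hold it could add to them, which was not tested. With the slide as a block the change in KO/Y over −Tx cells turned to 0.32 (adjusted p = 0.555), so its direction is not settled.

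The spread between arrays of a group set *Pou5f1* and *Nanog* apart from the rest of the set. The standard deviation within groups was 0.345 for *Pou5f1* and 0.283 for *Nanog* on the log2 scale, above 92.5% and 87.5% of the genes tested. For *Klf4* it was 0.048, above 4.46% of genes. The median over all genes was 0.122, and the other 7 factors lay between 0.068 for *Zfp42* and 0.125 for *Klf5*. A change of the size seen for *Klf4* could thus pass for *Klf4* and miss the threshold for *Pou5f1*.

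**Figure D2:**
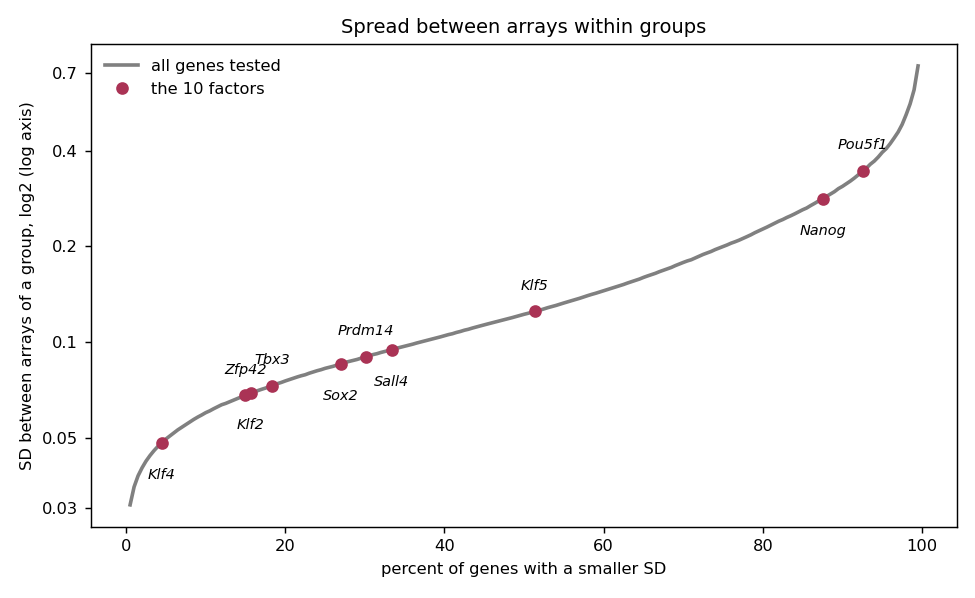
Standard deviation between arrays within groups (vertical axis, log2 units on a log axis) against the percent of genes with a smaller one (horizontal axis). The grey line is all genes tested and the points are the 10 factors, with *Pou5f1* at 0.345 and *Nanog* at 0.283 high on the line and *Klf4* at 0.048 near its lower end.

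Krüppel-like factors bind GC-rich and CACC sequences. Of *Klf2*, *Klf4* and *Klf5*, *Klf2* had the largest change in both comparisons of KO/Y cells, while that of *Klf4* was larger at 4 days. *Klf2* had levels of 6.12, 6.07 and 5.99 in −Tx, of 5.47, 5.57 and 5.61 in +Tx and of 4.99, 5.11 and 5.11 in KO/Y cells. Each group lay wholly below the one before it. The log2 fold change was -0.51 in +Tx over −Tx cells (standard error 0.069, adjusted p = 0.00128, limma), 1.42-fold lower. It was -0.48 in KO/Y over +Tx cells (adjusted p = 0.00137) and -0.99 in KO/Y over −Tx cells (adjusted p = 1.10e-05), 1.98-fold lower. *Klf2* fell in both steps, and in KO/Y over −Tx cells 7.93% of genes had a larger absolute change. Between arrays of slide 2 the fall in KO/Y over +Tx cells was -0.52 (3 arrays against 2, adjusted p = 0.0198, limma). On slide 1 the +Tx cells have 1 array, which was -0.59 from the mean of the 3 −Tx arrays, a value given with no test.

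*Klf4*, a target of LIF and Stat3 signalling, moved the other way. Its levels were 3.26, 3.20 and 3.26 in −Tx, 3.78, 3.78 and 3.89 in +Tx, and 3.86, 3.88 and 3.95 in KO/Y cells. All 6 arrays of +Tx and KO/Y cells lay above the −Tx arrays, while +Tx and KO/Y overlapped. The log2 fold change was 0.58 in +Tx over −Tx cells (standard error 0.060, adjusted p = 0.000334, limma), 1.49-fold higher, and 0.66 in KO/Y over −Tx cells (adjusted p = 4.54e-05), 1.58-fold higher. In KO/Y over +Tx cells it was 0.08 (-0.06 to 0.22). On slide 1 the 1 +Tx array was 0.54 above the mean of the 3 −Tx arrays, a value with no test.

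*Klf5*, which supports proliferation of ES cells, had levels of 3.30, 3.21 and 3.02 in −Tx, of 2.95, 2.99 and 2.95 in +Tx and of 2.76, 2.73 and 3.02 in KO/Y cells. Only −Tx and +Tx did not overlap, by the margin between 2.99 and 3.02. The log2 fold changes were -0.21 (-0.44 to 0.01) with Tx and -0.13 (-0.35 to 0.10) from +Tx to KO/Y cells. It reached -0.34 in KO/Y over −Tx cells (standard error 0.099, adjusted p = 0.0213, limma), 1.26-fold lower. This call was lost with the slide as a block (-0.35, adjusted p = 0.235), with no filter on dim probes (adjusted p = 0.0526) and without any 1 of KO/Y array 1, KO/Y array 2, −Tx array 1 or −Tx array 2 (adjusted p = 0.065 to 0.076).

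*Tbx3*, which supports self-renewal when LIF signalling is low, had the largest change of the 10 factors at 4 days. Its levels were 3.0, 2.99 and 2.94 in −Tx, 3.62, 3.75 and 3.81 in +Tx, and 3.72, 3.84 and 3.86 in KO/Y cells. As for *Klf4*, all +Tx and KO/Y arrays lay above the −Tx arrays, and +Tx and KO/Y overlapped. The log2 fold change was 0.75 in +Tx over −Tx cells (standard error 0.070, adjusted p = 0.000192, limma), 1.68-fold higher, and 5.06% of genes had a larger absolute change. It was 0.08 (-0.08 to 0.24) in KO/Y over +Tx cells and 0.83 in KO/Y over −Tx cells (adjusted p = 3.15e-05, limma), 1.78-fold higher. The 1 +Tx array of slide 1 was 0.65 above the mean of the −Tx arrays, again with no test.

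**Figure D3:**
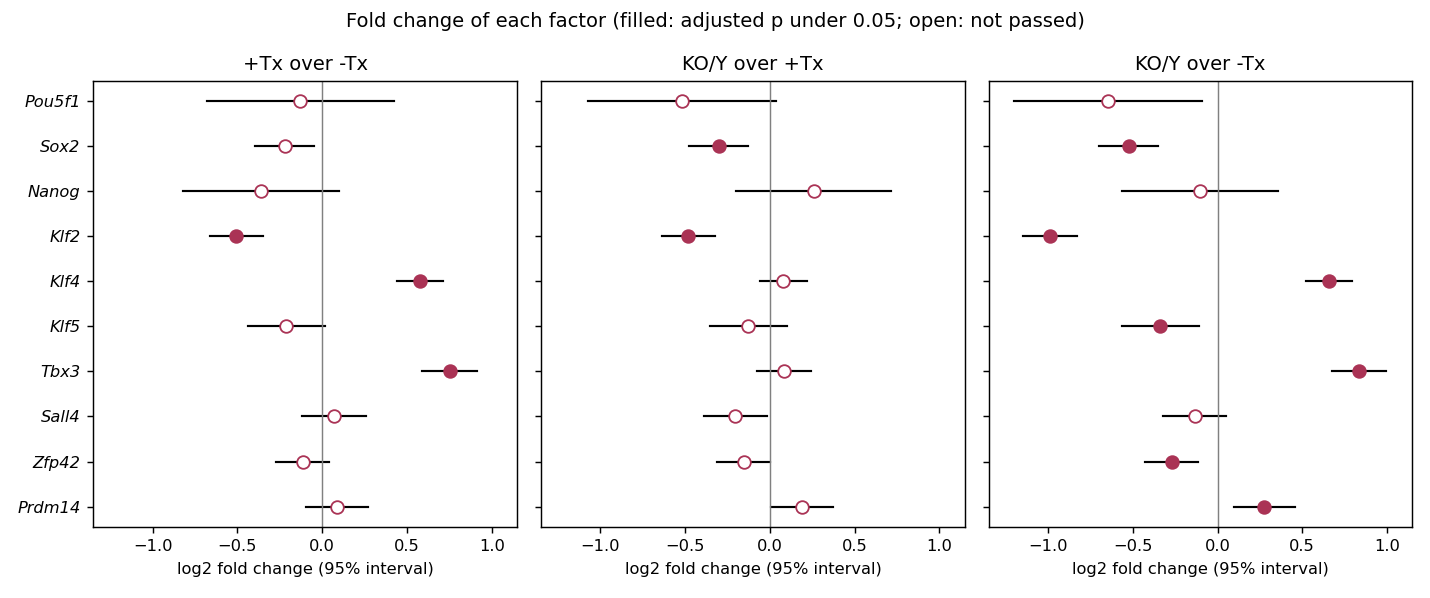
Log2 fold change of each factor (horizontal axes) with its 95% confidence interval from limma, in +Tx over −Tx, KO/Y over +Tx and KO/Y over −Tx cells. Filled points passed an adjusted p of 0.05: *Klf2*, *Klf4* and *Tbx3* in the first panel, *Sox2* and *Klf2* in the second, and 7 factors in the third, where *Klf2* reached -0.99 and *Tbx3* 0.83.

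*Sall4*, a zinc finger partner of Oct3/4, was read by 3 probes, which lie at positions 2094, 2666 and 4512 of its transcript. The sequences of 2 of them show that they are separate stretches, at chr2:168580437-168580496 and chr2:168578172-168578231 of mm9:

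Sall4 position 2094: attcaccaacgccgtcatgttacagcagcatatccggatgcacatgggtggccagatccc

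Sall4 position 2666: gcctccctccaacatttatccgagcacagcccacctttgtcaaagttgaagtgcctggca

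The third, the brightest probe, was used for the gene. Its levels were 2.71, 2.76 and 2.82 in −Tx, 2.77, 2.87 and 2.86 in +Tx, and 2.78, 2.49 and 2.62 in KO/Y cells. The groups overlapped in all comparisons. The log2 fold changes were 0.07 (-0.12 to 0.26), -0.20 (-0.39 to -0.02) and -0.13 (-0.32 to 0.05), and none passed (adjusted p = 0.563, 0.103 and 0.217, limma).

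The probe at position 2666 was at 1.48, 1.53 and 1.30 in −Tx, at 1.49, 1.49 and 1.30 in +Tx and at 1.37, 1.52 and 1.44 in KO/Y cells. That at position 2094 was at -1.57, -1.42 and -1.64, at -1.26, -1.39 and -1.58 and at -1.38, -1.75 and -1.14 in the same order. The brightest probe and those at positions 2666 and 2094 gave log2 fold changes of -0.13, 0.0072 and 0.12 in KO/Y over −Tx cells, with intervals that all include 0. None of the 3 passed in any comparison when each of the 31191 probes was tested on its own, where 23.6%, 24.7% and 45.3% of probes passed in the 3 comparisons. The probes thus gave no change past the threshold, with different signs, and the interval of the dimmest was the widest (-0.23 to 0.47). Without KO/Y array 1 the brightest probe passed in KO/Y over +Tx cells (-0.28, adjusted p = 0.0264) and over −Tx cells (-0.21, adjusted p = 0.0454, limma).

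*Zfp42*, the marker of naive cells whose promoter is printed above, had its lowest levels in KO/Y cells. Its levels were 6.13, 6.18 and 6.13 in −Tx, 6.0, 6.0 and 6.09 in +Tx, and 5.77, 5.89 and 5.97 in KO/Y cells. No 2 groups overlapped, though the steps are small. The log2 fold changes of the steps were -0.12 (-0.27 to 0.04) and -0.15 (-0.31 to 0.00096), and neither passed. Over both steps it was -0.27 (standard error 0.068, adjusted p = 0.0106, limma), 1.21-fold lower, and -0.32 with the slide as a block (adjusted p = 0.123).

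*Prdm14*, which restrains Fgf signalling and DNA methylation, had levels of 1.24, 1.30 and 1.28 in −Tx, of 1.29, 1.29 and 1.51 in +Tx and of 1.64, 1.46 and 1.56 in KO/Y cells. Array 3 of +Tx lay among the KO/Y arrays and the other +Tx arrays among the −Tx arrays. The log2 fold changes were 0.09 (-0.09 to 0.27) and 0.19 (0.01 to 0.37) in the 2 steps, neither past the threshold. It reached 0.28 in KO/Y over −Tx cells (standard error 0.079, adjusted p = 0.0192, limma), 1.21-fold higher. That call was lost with the slide as a block (0.16, adjusted p = 0.475), with no filter on dim probes (adjusted p = 0.0504) and without KO/Y array 1, KO/Y array 3, −Tx array 1 or −Tx array 3 (adjusted p = 0.0507 to 0.0607).

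Over the set, the arrays of −Tx and +Tx cells did not overlap for 6 of 10 factors, against 47% of all genes. For KO/Y and +Tx cells this held for 3 of 10, against 39.7%, and for KO/Y and −Tx cells for 7 of 10, against 57.7%. With the slide as a block, 4 factors passed in KO/Y over −Tx cells, beside 21.8% of all genes in that fit: *Klf2* (-1.11, adjusted p = 0.00106, limma), *Sox2* (-0.60, adjusted p = 0.0246), *Klf4* (0.60, adjusted p = 0.0102) and *Tbx3* (0.68, adjusted p = 0.0076). This fit reaches KO/Y and −Tx cells through the +Tx arrays, the 1 group on both slides. Its slide 1 part sets +Tx array 1 alone against the −Tx arrays, so these values and calls depend on that 1 array.

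Whether a factor changed by the same amount in both steps was tested by the difference between the second step (KO/Y over +Tx) and the first (+Tx over −Tx), a test chosen after the values were seen. For *Klf4* the second step minus the first was -0.50 (-0.73 to -0.26, adjusted p = 0.0181, limma) and for *Tbx3* -0.67 (-0.95 to -0.39, adjusted p = 0.0106). On these arrays the rise of both was larger in the first 4 days. *Klf4* and *Tbx3* were the 2 of 10 factors that passed, beside 11% of all genes. The −Tx arrays lay on slide 1 and +Tx arrays 2 and 3 on slide 2, and this test was not run with the slide as a block. For *Klf2* the steps differed by 0.02 (-0.25 to 0.30) and for *Sox2* by -0.08 (-0.38 to 0.22), intervals that hold both equal steps and differences of that size. The first and second step share the +Tx arrays, with opposite signs.

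Other genes of the network, most of them transcription factors, were described by a list of 28 genes. In +Tx over −Tx cells 2 were higher and 10 lower, in KO/Y over +Tx cells 0 and 14, and in KO/Y over −Tx cells 2 and 19. Of all genes, 11.9%, 12.1% and 20.5% were higher and 14.7%, 14.1% and 26.4% lower in the 3 comparisons, and the counts of each list below stand beside these shares, with no test between them. The medians were -0.13, -0.26 and -0.42 beside the all-gene medians given above. Those that fell most in KO/Y over −Tx cells were *Gbx2*, a homeobox factor downstream of Stat3 (-2.46), *Mycn* (-2.37) and *Tfcp2l1*, a Stat3 target that supports naive self-renewal (-1.19, adjusted p = 2.81e-07, 1.31e-07 and 1.55e-06, limma). From +Tx to KO/Y cells *Gbx2* (-1.81), *Mycn* (-1.60) and *Lin28a*, which encodes an RNA-binding protein (-0.83), fell most. At 4 days with Tx these were *Tfcp2l1* (-1.10), *Mycn* (-0.77) and *Nr6a1*, an orphan nuclear receptor gene (-0.72), while *Otx2* rose by 0.72 and *Foxd3* by 0.57. *Otx2*, a factor of primed epiblast, was 0.69 and *Stat3* 0.22 higher in KO/Y over −Tx cells.

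Genes with known Oct-Sox elements were described as targets of the core pair, a list of 8. Counts higher and lower were 2 and 2 in +Tx over −Tx cells, 1 and 5 in KO/Y over +Tx cells and 2 and 5 in KO/Y over −Tx cells. *Lefty1*, an inhibitor of Nodal, fell in all 3 comparisons, with log2 fold changes of -1.72, -0.68 and -2.40. *Gdf3*, a ligand of the same pathway, fell as well, with -0.58 with Tx and -1.02 in KO/Y over −Tx cells. From +Tx to KO/Y cells *Utf1*, a chromatin factor, and *Dppa4* both fell by 0.61, and *Utf1* was at -0.50 over both steps. Against these, *Fbxo15* rose by 0.38, 0.43 and 0.81 and *Spp1* by 0.49 with Tx and 0.65 in KO/Y over −Tx cells. The list held members that moved both ways, and its medians were 0.11, -0.46 and -0.38.

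Of 6 genes that Prdm14 is known to repress, 1 was higher and 3 lower in +Tx over −Tx cells, 1 and 1 in KO/Y over +Tx cells, and 2 and 3 in KO/Y over −Tx cells. The DNA methyltransferase gene *Dnmt3b* fell, with -0.64 with Tx and -0.62 in KO/Y over −Tx cells. *Dnmt3a* rose by 0.36 from +Tx to KO/Y cells and by 0.49 over both steps, and its cofactor *Dnmt3l* rose by 0.21 with Tx and by 0.29 over both steps. *Uhrf1*, which guides maintenance methylation, fell in all 3 comparisons (-0.20, -0.27 and -0.47). *Fgfr2* fell with Tx (-0.29) and over both steps (-0.25). The medians were -0.03, 0.03 and -0.06.

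Of 14 paralogues of the Klf factors, 11 were above background. Over both steps 1 of 11 was higher and 8 lower (median -0.36), beside 20.5% and 26.4% of all genes, with *Klf12* at -1.78, *Klf8* at -0.68 and *Klf16* at -0.58 lower and *Klf17*, at 0.39, higher. *Klf12* fell in both steps (-1.09 and -0.69). *Klf15* rose by 0.50 with Tx and fell by 0.93 from there to KO/Y cells. The counts higher and lower were 1 and 2 with Tx, where *Klf10* fell by 0.39, and 1 and 6 from +Tx to KO/Y cells, with medians of -0.14 and -0.26.

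Of 16 T-box paralogues, 13 were above background, and 4, 5 and 9 were higher and 0, 1 and 1 lower in the 3 comparisons, with medians of 0.26, 0.33 and 0.70. The shares of all genes that were higher were 11.9%, 12.1% and 20.5%. Over both steps *Tbx1* (1.14), *Tbx21* (1.13) and *Tbx2* (1.03), the nearest relative of *Tbx3*, were higher. At 4 days they were 0.68, 0.61 and 0.57 higher. *T*, which marks primitive streak, rose by 0.86 and *Tbx5* by 0.57 from +Tx to KO/Y cells. *Mga*, a Max partner, fell in that step (-0.43) and over both (-0.50).

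Sox paralogues were split. Of 18, 13 were above background, and 2, 4 and 4 were higher and 1, 3 and 3 lower in the 3 comparisons, with medians of -0.09, -0.0052 and 0.10. Over both steps, KO/Y over −Tx, the endoderm factors *Sox17* and *Sox7* were 3.13 and 2.69 higher, fitted values against −Tx arrays on which 0 and 1 of 3 read above background. *Sox9* was higher (0.86), and *Sox11* (-0.88), *Sox3* (-0.30) and *Sox13* (-0.24) were lower. At 4 days *Sox9* (0.54) and *Sox3* (0.27) were higher and *Sox11* (-0.41) was lower. From +Tx to KO/Y cells *Sox17* (3.23, against +Tx arrays of which 0 read above background), *Sox7* (2.02, against 1 of 3 such arrays) and *Sox15* (0.45) rose, and *Sox3* (-0.57), *Sox11* (-0.48) and *Sox4* (-0.18) fell.

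Of 14 Pou paralogues 8 were above background, with 2, 0 and 1 higher and 1, 4 and 3 lower. *Pou4f2* rose by 2.20 with Tx, fell by 1.65 from there to KO/Y cells and was 0.55 higher over both steps. *Pou3f1*, the Oct6 gene of primed epiblast, was lower with Tx and in KO/Y over −Tx cells, at -0.77 in both. *Pou2f1*, the gene of the ubiquitous Oct1, fell from +Tx to KO/Y cells (-0.54) and over both steps (-0.76).

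*Sall1* fell in all 3 comparisons (-0.56, -0.74 and -1.29), while *Sall2* gave 0.38, -0.35 and 0.03 with no call and *Sall3* was below background. Of 13 Prdm paralogues, 7 were above background, with 0, 0 and 2 higher and 2, 1 and 3 lower. *Prdm1*, which encodes Blimp1, fell in all 3 (-0.40, -0.32 and -0.72), and *Prdm16* and *Prdm2* were 0.87 and 0.45 higher in KO/Y over −Tx cells. *Yy1*, the gene from whose family *Zfp42* arose, fell from +Tx to KO/Y cells (-0.29) and over both steps (-0.31), and *Yy2* gave -0.35, 0.16 and -0.19 with no call.

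**Figure D4:**
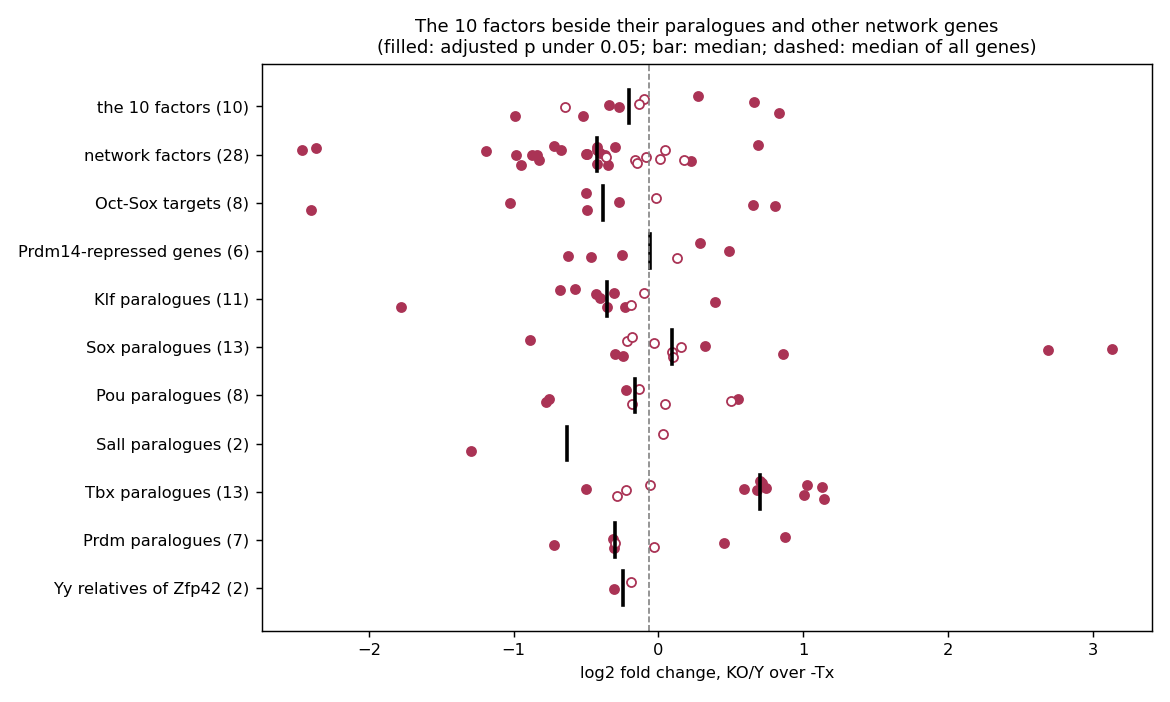
Log2 fold change in KO/Y over −Tx cells (horizontal axis) of the 10 factors and of each list described, with the number of genes tested in brackets. Filled points passed an adjusted p of 0.05, bars are list medians and the dashed line is the median of all genes. Klf paralogues lie mostly left of it (median -0.36) and T-box paralogues mostly right (median 0.70).

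Markers of other cell types moved with the groups. The summed signal of 18 fibroblast markers, in units of the array's 75th percentile, was 797 to 817 in −Tx, 966 to 1074 in +Tx and 1092 to 1176 in KO/Y cells, with 12, 8 and 18 of 18 higher and 0 lower in the 3 comparisons. All 18 were above background on every array. With Tx, *Klf4* and *Tbx3* rose while this sum rose. From +Tx to KO/Y cells the sum was higher again, while both factors were at 0.08 with no call. The part of feeder RNA in their values was not tested.

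For primitive endoderm the sum of 15 markers was 13.1 to 13.5 in −Tx, 18.1 to 21.2 in +Tx and 50.5 to 75.8 in KO/Y cells. Of the 13 tested, 5 were higher and 2 lower with Tx, and all 13 were higher in both comparisons of KO/Y cells. KO/Y array 1 had the highest endoderm sum. Among KO/Y arrays it also had the lowest *Pou5f1*, *Sox2*, *Nanog*, *Klf2*, *Klf4*, *Tbx3* and *Zfp42*. It had the highest *Prdm14* and, by the brightest probe only, the highest *Sall4*. The *Sall4* probe at position 2666 was lowest on that array (1.37, beside 1.52 and 1.44). The one at position 2094 lay between the others (-1.38, beside -1.75 and -1.14). KO/Y array 2, with the lowest sum of the KO/Y arrays, did not have the highest *Pou5f1*. After scaling, genes at large also read lower on KO/Y array 1. Leaving it out moved the median of all genes in KO/Y over −Tx cells from -0.063 to -0.028. Before scaling, its intensities of *Sox2*, *Klf2*, *Klf4*, *Tbx3* and *Zfp42* were the highest of the KO/Y arrays (*Klf2* 15372, beside 11899 and 12014). The parts of differentiated cells and of the scaling in these values were not tested.

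The summed trophectoderm markers were 13.9 to 14.3, 8.26 to 8.61 and 22.6 to 24.0 in −Tx, +Tx and KO/Y cells (12 markers, of 10 tested 2, 7 and 8 higher and 5, 0 and 1 lower). Primed epiblast markers summed to 69.8 to 70.8, 59.1 to 65.4 and 55.6 to 59.6 (11 markers, 1, 3 and 4 higher and 4, 3 and 5 lower). All these sums add linear signal, so the brightest probes weigh most and a sum can follow a few genes. Among trophectoderm markers *Tfap2c* fell with Tx (-1.96) and was at -1.38 in KO/Y over −Tx cells. *Hand1* moved the other way, by 2.09 with Tx and 4.91 in KO/Y over −Tx cells, against −Tx arrays of which 0 read above background. *Krt8* (2.01) and *Krt18* (2.09) rose from +Tx to KO/Y cells. Among primed epiblast markers *Dnmt3b* fell with Tx (-0.64) while *Otx2* rose (0.72). For markers of the late 2-cell state the sums were 33.6 to 35.1, 96.2 to 104 and 130 to 149 (7 markers, 5 higher and 0 lower in each comparison). A sum of 10 ES cell markers, 4 of which are among the factors, was 754 to 791 in −Tx, 714 to 758 in +Tx and 603 to 717 in KO/Y cells, and all 10 were above background on all arrays. Markers of the labelled cell type thus gave signal in every group, with the limit given above for the *Nanog* probe. Their sum was lower in KO/Y than in −Tx cells (1 marker higher, *Fbxo15*, and 5 lower in KO/Y over −Tx cells). The brightest of them, *Dppa5a*, weighs most in this sum and was at -0.12 in that comparison, with no call.

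**Figure D5:**
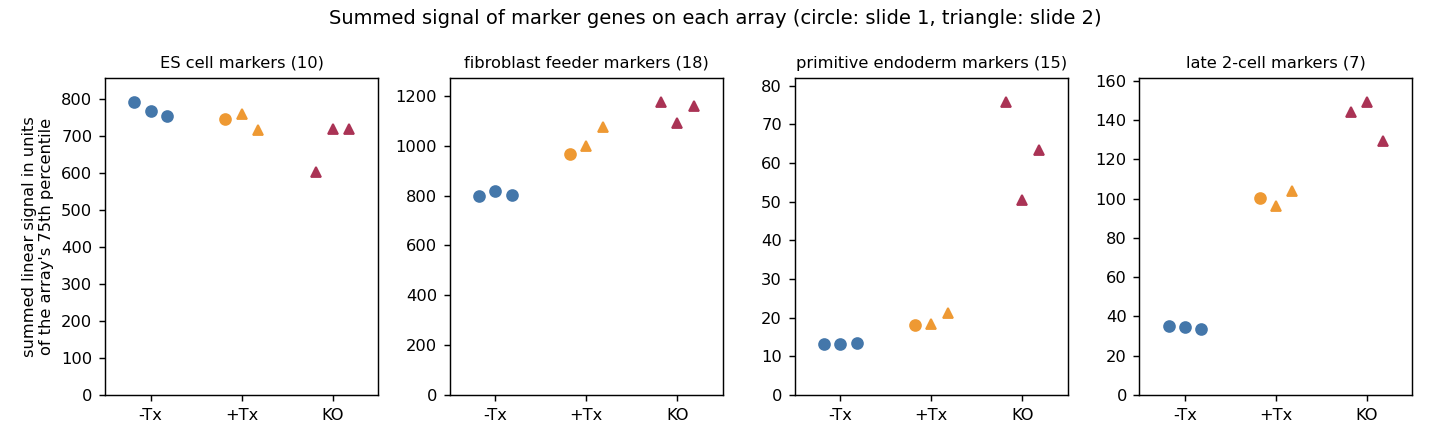
Summed linear signal of marker genes on each array, in units of the array's 75th percentile (vertical axes, starting at 0), by group (horizontal axes), with shapes for the slide. ES cell markers run from 603 to 791, fibroblast markers rise from 797 to 1176, primitive endoderm markers from 13.1 to 75.8 and late 2-cell markers from 33.6 to 149.

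For the 3 factors with the largest changes, the genes with the most similar profile over the 9 arrays were sought, as a description. *Klf2* went with *Scn3a*, *Gspt1* and *Sod2* (Pearson's r = 0.997, 0.996 and 0.996), *Tbx3* with *Cgas*, *Actn4* and *1700001P01Rik* (0.996, 0.995 and 0.993) and *Klf4* with *Soat1*, *Npl* and *Tmem231* (0.996, 0.993 and 0.993). The 9 points fall into 3 groups on 2 slides, so a high r mostly records that 2 genes share the order of the group means.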

How the data were processed

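Arrays were 1-colour (Cy3). The authors made the intensity values, per the file headers, with Agilent Feature Extraction 10.7.3.1, as processed signals of each spot after background subtraction. The authors also deposited a signal column for each group, used as an alternative. Groups came from the sample labels, and an array's number only names it, by slide position. In R 4.3.3 (package data.table, version 1.17.8), log2 intensities were centred on each array's 75th percentile without outlier spots. A probe was kept if well above background in all 3 arrays of any group, and a gene took its brightest probe. One fit of the 9 arrays with limma 3.58.1 tested 22443 genes, with Benjamini-Hochberg adjustment at 0.05, after a test on simulated data. Probe sequences were compared with blastn 2.17.0. The members, lists and tests were chosen with earlier results of these data known. Named genes are the members, *Nr0b1*, up to 3 genes per list, comparison and direction with the largest change among those that passed, all genes of lists of 3 or fewer, and 3 genes most like each of 3 members. Marker lists are given by counts and sums, with a few genes named where bright probes weigh on a sum or a marker moved the other way. Pairs of similar probes were named after the search. Alternatives were normexp correction (offset 50), quantile normalization, median scaling, no filter or a stricter one, the slide as a block or arrays of a single slide, an intensity trend, the mean of a gene's probes, outlier spots kept, a fit of just the groups compared, leaving out each array, and the authors' signal column. The number of arrays limits the precision.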

Additional observations from a re-analysis of the deposited data

How the results depend on the processing

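The count of factors past the threshold was 3 of 10 in +Tx over −Tx, 2 of 10 in KO/Y over +Tx and 7 of 10 in KO/Y over −Tx cells. Of all genes, 26.6%, 26.2% and 46.9% passed. The count became 1 in KO/Y over +Tx cells with no filter on dim probes and with only the shared slide. Each time this was *Klf2* without *Sox2* (adjusted p = 0.0589 and 0.0845 for *Sox2*, limma). The shares of all genes in these 2 fits were lower too, at 12.1% and 12.5%. With the slide as a block the count was 4 in KO/Y over −Tx cells, beside 21.8% of all genes. With no filter it was 5 in KO/Y over −Tx cells, where *Klf5* and *Prdm14* were lost, beside 26.4% of all genes. With each array left out in turn the counts ranged from 3 to 4, from 2 to 2 and from 5 to 8 in the 3 comparisons. In the same fits, 3823 to 6623, 4487 to 5835 and 9003 to 10916 of all genes passed. In KO/Y over +Tx cells the 2 were not always the same genes: without KO/Y array 1, KO/Y array 3 or +Tx array 3, *Sox2* gave way to *Sall4*, *Pou5f1* or *Prdm14*, in that order. The change of *Nanog* in KO/Y over −Tx cells reversed from -0.10 to 0.32 with the slide as a block, and with each array left out in turn it ranged from -0.22 to 0.072, the highest without KO/Y array 1. With an intensity trend, normexp correction, the stricter filter, or without KO/Y array 3 or +Tx array 3, *Pou5f1* passed in KO/Y over −Tx cells (adjusted p = 0.0156, 0.0351, 0.0449, 0.00615 and 0.0389, limma). The cause was not tested. The calls of *Klf2*, *Klf4* and *Tbx3* held under the alternatives run that give a test with more than 1 array in each group. The authors' signal column gives no test, and the shared slide of +Tx and −Tx cells holds 1 +Tx array and gives effect sizes only. The fit with the slide as a block depends on that array too. No paired analysis was possible because the labels do not tie arrays to replicate numbers. A fit within 1 slide was not run for KO/Y over −Tx cells, since no slide holds both.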
